A study of Mus musculus with 12 samples.

Results

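The 50 genes of the DNA replication machinery and of deoxynucleotide supply were followed across basophils grown with either of 2 cytokines and sorted into 2 stages. The genes were taken from a list of the MCM helicase, origin licensing factors, CDC45 and GINS, origin-firing kinases and cyclin E, DNA polymerases and primase, PCNA and the RFC clamp loader, RPA and Okazaki fragment enzymes, and nucleotide enzymes, which makes 8 roles. All 50 were in the count table of 31301 gene symbols. All 50 had a mean of at least 1 count per 1000000 (CPM) over the 12 libraries, and all 50 were among the 10861 genes tested.

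Bone marrow cells of wild-type C57BL/6J mice were kept for 7 days in either of 2 cytokines to obtain bone marrow-derived basophils (BMBAs). One was interleukin-3 (IL-3) at 0.3 ng/mL, and the other was thymic stromal lymphopoietin (TSLP) at 1 µg/mL by the treatment protocol, while another label field gives that dose in mg/mL. Sorting by the IgE receptor and the integrin CD49b split each culture in 2. Cells that were FcεRIαhi CD49blo are named immature below (the pre-basophils of the study), and cells that were FcεRIαlo CD49bhi are named mature. With 2 cytokines and 2 stages there were 4 groups, each of 3 libraries. Every group thus shares the genetic background and the time in culture, and no group without cytokine was analysed here.

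DNA is copied in S phase by a fixed order of complexes. The origin recognition complex (ORC), CDC6 and CDT1 load rings of MCM2 to MCM7 on DNA in G1, and the kinases CDC7-DBF4 and cyclin E-CDK2 then recruit CDC45 and GINS, which turn the rings into active helicases. Primase and polymerase α start each strand, polymerases δ and ε extend it on the PCNA clamp that RFC loads, RPA covers single strands, and FEN1 and LIG1 join Okazaki fragments. Many of these genes are transcribed at the G1 to S transition under E2F factors, and cells that leave the cycle switch most of them off. In the bone marrow, basophil precursors divide whereas circulating basophils are regarded as non-dividing granulocytes.

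Promoter letters that the choice of genes had not used were counted first. A RefSeq window of 300 bases (250 before and 50 after the start, GRCm38.p6) was at hand for 41 of the 50 genes. Only the first listed window of each gene was searched, although 7 of the members had more than 1. At least 1 of the 3 E2F-type octamers TTTGGCGC, TTTCCCGC and TTTGGCGG, on either strand, stood in 15 of 41 windows (36.6%), against 583 of 27025 windows of all genes (2.16%) and 0 of 27 windows of a list of 32 mitotic genes. No octamer contains another or the letters CCAAT. The letters CCAAT, bound by NF-Y, stood in 22 of 41 windows (53.7%), in 37.9% of all windows and in 19 of 27 mitotic windows (70.4%). By role, E2F-type letters were present in 5 of 7 polymerase and primase windows, 4 of 6 MCM windows, 3 of 8 licensing windows and 0 of 5 nucleotide supply windows. The windows searched for Mcm2, Lig1 and Rrm2, whose large changes are described below, did not hold them. Lig1 has 3 windows, of which only the first was searched. These are matches of letters and not measured binding sites. For 8 of the 15 genes the start used by the window lies inside the annotated gene. Shown are the stretches before Mcm5 and Mcm6, a pair of MCM ring subunits whose letters lie ahead of the outermost annotated start of the gene, and each stretch ends at that start. Capitals mark the E2F-type letters, in either orientation.
Mcm5, chr8:75109259-75109467, plus strand: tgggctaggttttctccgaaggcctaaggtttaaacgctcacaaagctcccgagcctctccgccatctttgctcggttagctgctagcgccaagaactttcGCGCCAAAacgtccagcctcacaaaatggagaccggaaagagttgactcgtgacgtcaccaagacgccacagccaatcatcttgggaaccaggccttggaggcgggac
Mcm6, chr1:128359706-128359955, minus strand: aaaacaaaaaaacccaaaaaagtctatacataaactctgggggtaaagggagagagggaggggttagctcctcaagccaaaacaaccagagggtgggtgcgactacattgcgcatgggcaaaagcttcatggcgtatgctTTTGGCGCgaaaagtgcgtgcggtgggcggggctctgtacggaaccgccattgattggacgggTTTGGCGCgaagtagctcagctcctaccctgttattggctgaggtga

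Libraries held 1720065 to 3685285 counts. Summed markers of basophils (7 of 7 detected) lay between 7040 and 40300 CPM and were higher in every immature than in every mature library. The proteases Mcpt8 and Prss34 carried that sum. With IL-3, Prss34 stood at 17000 to 21100 CPM in immature and 681 to 913 in mature libraries, whereas Cd200r3 (659 to 763 against 1180 to 1390) and Gata2 (559 to 846 against 1050 to 1230) went the other way. Itga2, which encodes CD49b, was higher in all mature than in all immature libraries. Fcer1a, which encodes the other sorting marker, was at 1580 to 1610 CPM in immature and 862 to 1260 in mature libraries with IL-3, but with TSLP the stages overlapped (1220 to 1520 and 867 to 1770). The mast cell gene Kit was at 1.45 CPM or below. TSLP mature 1 stood apart. Its sum over a neutrophil lineage list (9 of 9 detected) was 794 CPM against 45.8 and 37.1 in the other two of its group, and other groups ranged from 287 to 409 (mature, IL-3), from 414 to 525 (immature, TSLP) and from 836 to 918 (immature, IL-3). Its sum over a B lineage list (10 of 10 detected) was 157 CPM against 18.9 and 21.1, with 28 to 32.9 in TSLP immature and 2.13 to 6.92 in IL-3 libraries. Calls and medians of the comparisons with TSLP mature cells are therefore also given without this library. For single genes this was done only in part. It was not done for Dut, Lig1, Pold2 and Rpa3, among others, although these were highest in TSLP mature 1 within their group. The sum of monocyte and macrophage markers (6 of 6 detected) moved with the stage. It was 100 to 163 CPM in IL-3 mature against 10.9 to 33.3 in IL-3 immature libraries. With TSLP it was 233 to 300 (mature) against 58.4 to 70.9 (immature). Adgre1 carried these sums, at 78.6 to 112 CPM in IL-3 mature and 172 to 214 in TSLP mature libraries. Between the IL-3 stages C1qa and C1qb overlapped, whereas Csf1r, Ly86 and Fcgr1 were higher in every mature library. Within the neutrophil list, Mpo, the myeloperoxidase of neutrophil granules, was at 648 to 757 CPM in immature and 0.449 to 2.84 in mature libraries with IL-3, and at 304 to 365 and 1.13 to 16.9 with TSLP, whereas Retnlg was higher in IL-3 mature (87.4 to 118) than in IL-3 immature libraries (3.38 to 5.6). Nkg7 of the T and NK list (45.2 to 49.2 against 1.42 to 2.9 CPM with IL-3) and Cpa3 of the mast cell list (2750 to 3210 against 1310 to 1830) were also higher in the immature libraries, and with TSLP likewise. All other genes of these lists were at 5.32 CPM or below in every library. Whether other cell types had a part in the results was not tested.

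The replication genes were far more abundant in immature than in mature basophils of both cultures, and the contrast was smaller with TSLP. Their summed level with IL-3 was 2740 to 2950 CPM in immature and 565 to 618 CPM in mature libraries. With TSLP it was 2050 to 2110 and 788 to 920 CPM. The 4 ranges did not overlap. In these bulk samples, fewer cells in cycle and less RNA per cell cannot be told apart.

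**Figure D1:**
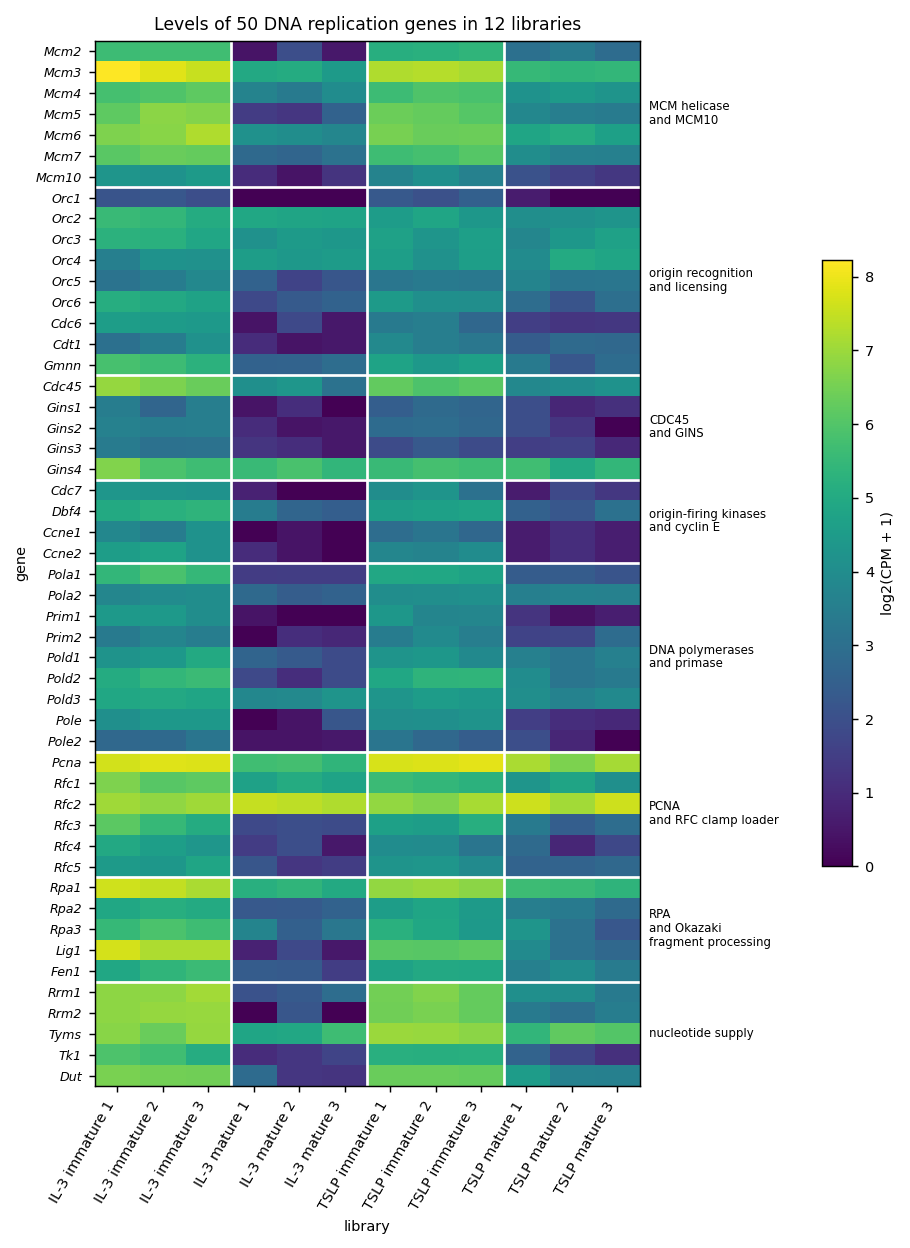
Levels of the 50 replication genes (rows, grouped by role) in the 12 libraries (columns), as log2(CPM + 1) on the colour scale. The 3 IL-3 mature libraries form the darkest block, with rows such as Orc1, Prim1 and Ccne1 near 0, whereas Rfc2, Gins4 and Orc4 keep a similar colour in all 4 groups.

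In IL-3 cultures, 47 of 50 genes were called higher in immature cells and 0 lower (quasi-likelihood test of edgeR, p adjusted over all genes tested by Benjamini-Hochberg and below 0.05). At an unadjusted p below 0.05, 1 was lower (Rfc2), and DESeq2 called 0 lower. Over all genes, 22.1% were called higher and 24.1% lower. The median log2 fold change was 3.54 for the 50 genes and -0.06 for all tested genes. The change was above 5 on the log2 scale for 9 genes, between 2 and 5 for 31 and below 2 for 7 that were called. The 3 genes not called were Orc4, Gins4 and Rfc2. In TSLP cultures, 41 genes were higher in immature cells, where 12.2% of all genes were, and 1 (Rfc2) was lower, where 12.9% were. Here the median was 1.77, against -0.03 for all genes. All 41 were also called higher with IL-3, and for each of the 41 the fitted change was smaller with TSLP. Without TSLP mature 1, 41 genes were called, all higher, 40 of them shared (Rfc2 and Cdt1 were lost and Pold3 gained), and the median became 2.21. In that fit 2095 of 11020 tested genes were called higher and 1361 lower, against 1329 and 1403 of 10861 with every library.

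Between the mature groups, 22 genes were higher in TSLP than in IL-3 cells, where 12.4% of all genes were, and 1 (Orc2) was lower, where 11.9% were. The median was 1.08, against 0.09 for all genes. Without TSLP mature 1, 19 were higher, 1 was lower, and the median was 0.76. In that fit 1146 of 11020 tested genes were higher and 1822 lower. Leaving out IL-3 mature 2 reduced the calls to 15, and those over all genes from 2634 to 1657. Between the immature groups, 9 genes were lower with TSLP, where 5.90% of all genes were, and 0 were higher, also at an unadjusted p below 0.05 and by DESeq2, which called 11 lower. Over all genes, 7.38% were called higher. The median was -0.46, against 0.04 for all genes. All 3 TSLP immature libraries lay below all 3 IL-3 immature libraries for 28 of the 50 genes, a separation found in 17.8% of all genes. The number of calls here hung on single libraries. It was 1 without TSLP immature 3, 3 without IL-3 immature 1 or 2, and 19 without TSLP mature 1. Calls over all genes moved too. In these fits 225, 277, 351 and 1183 of 11020 to 11151 tested genes were lower, in the same order. With every library 641 of 10861 were lower. The 3 ribosomal RNA rows, which hold the same reads more than once, made up 35 to 40.1% (immature) and 17.3 to 34.7% (mature) of counts with TSLP, and 14.7 to 25% and 20.2 to 24.5% with IL-3. With these rows left out of the library sizes, 10 genes were called between the immature groups, all lower, and 21 between the mature groups, 20 of them higher. The comparisons share libraries, so that their calls are not independent of each other.

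**Figure D2:**
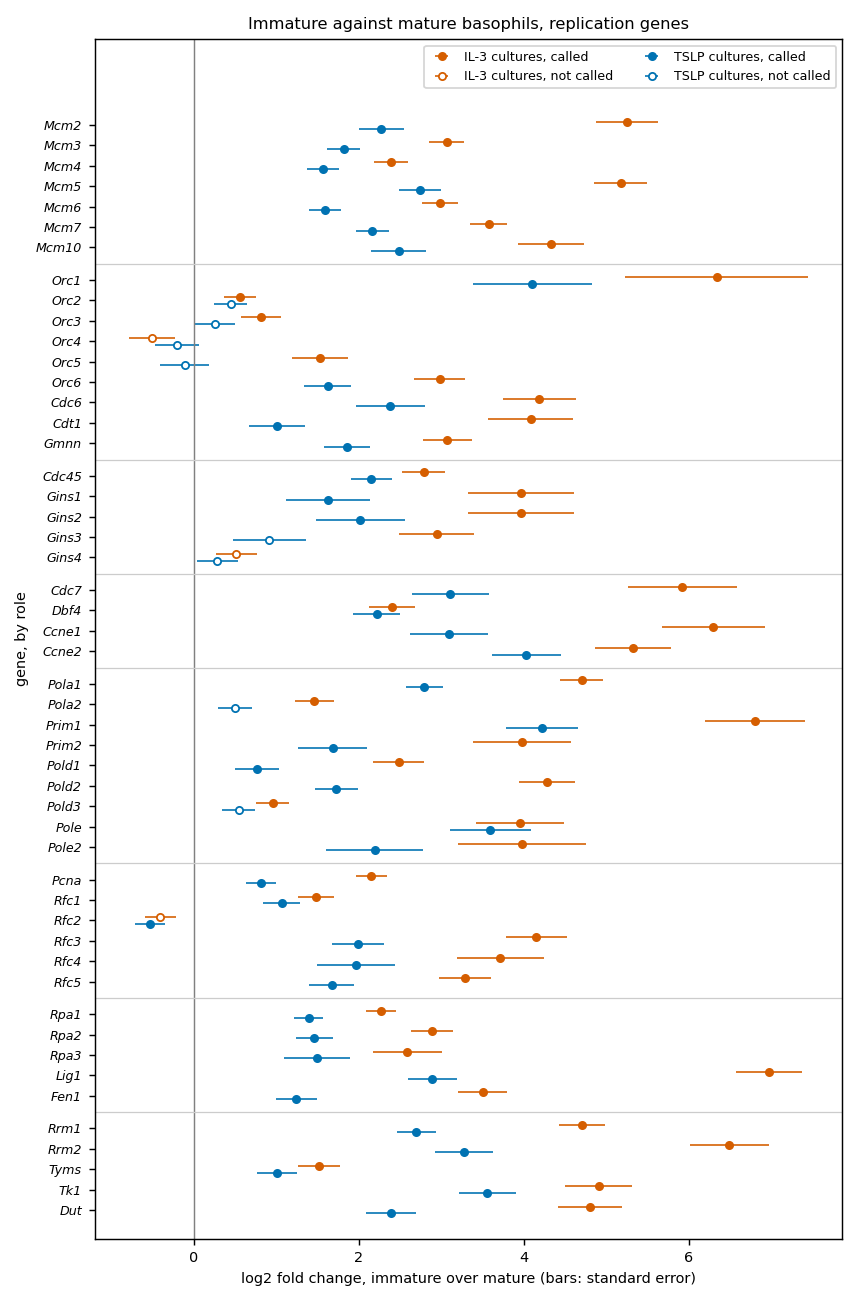
log2 fold change of immature over mature cells with its standard error (horizontal axis) for each of the 50 genes (vertical axis, grouped by role), in IL-3 (orange) and TSLP (blue) cultures. Filled points were called. Fitted changes run from -0.51 to 6.97 in IL-3 and from -0.53 to 4.22 in TSLP cultures.

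All 7 genes of the MCM group were higher in immature cells of both cultures. Mcm3 (chromosome 1, 20802966 to 20820312, minus strand), a subunit of the ring and the most abundant of the group, stood at 298, 231 and 186 CPM in the immature and 30.5, 32.6 and 21.6 in the mature libraries with IL-3, and at 149, 156 and 142 (immature) and 44.1, 40.4 and 42.6 (mature) with TSLP. The stages did not overlap in either culture, and the TSLP immature libraries lay below the IL-3 immature ones. Intervals of folds here and below are 95% exact binomial intervals, which hold counting error alone and not the spread between libraries. Mcm3 was 8.05-fold higher in immature cells with IL-3 (7.01 to 9.28) and 3.52-fold higher with TSLP (3.16 to 3.92). It was called lower in TSLP than in IL-3 immature cells (log2 fold change -0.67 ± 0.19 SE, adjusted p = 0.0284 by edgeR), a call lost without any single library of either immature group except IL-3 immature 3 (adjusted p up to 0.134).

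The largest IL-3 change of the ring was that of Mcm2 (chromosome 6, 88883474 to 88898780, minus strand), the subunit that also binds histones. It stood at 48.8, 50.9 and 50.8 CPM in the immature and 0.355, 2.9 and 0.449 in the mature libraries with IL-3, and at 34.4, 36.6 and 41 (immature) and 7.25, 9.32 and 6.43 (mature) with TSLP. Of its 10 counts in IL-3 mature cells most came from library 2. TSLP mature libraries were all above IL-3 mature ones, and the ratio was 6.01 (3.1 to 13). The log2 fold change between IL-3 stages was 5.25 ± 0.37 and became 6.89 without IL-3 mature 2. The log2 fold change between the mature groups, 2.55 ± 0.44 (adjusted p = 0.00123 by edgeR), became 4.08 without it. Mcm5 (chromosome 8, 75109468 to 75128439, plus strand), a further ring subunit, stood at 71, 110 and 103 CPM in the immature and 1.77, 1.45 and 4.94 in the mature libraries with IL-3, and at 81.4, 75.9 and 65.8 (immature) and 12.9, 10.5 and 9.8 (mature) with TSLP. The 2 immature groups overlapped for Mcm5 whereas the mature groups did not, with a ratio of 4.34 (2.68 to 7.36) for TSLP over IL-3. Its log2 fold change between the mature groups was 2.08 ± 0.37 and became 2.69 without IL-3 mature 3, and that between the IL-3 stages moved from 5.17 to 5.89.

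The smallest IL-3 change of the group was that of Mcm4 (chromosome 16, 15623897 to 15637400, minus strand), at 55.1, 61.4 and 70.9 CPM in the immature and 11.7, 9.43 and 14.8 in the mature libraries with IL-3, and at 49.1, 60.7 and 57.6 (immature) and 17.2, 21.2 and 18.1 (mature) with TSLP. It was 5.36-fold higher in immature cells with IL-3 (4.29 to 6.77) and 2.94-fold with TSLP (2.49 to 3.49). The mature groups did not overlap, and the call between them (log2 fold change 0.66 ± 0.22, adjusted p = 0.0361 by edgeR) was kept in 7 of 22 other settings. It was lost without TSLP mature 2 or 3, IL-3 mature 1 or 2, or any single immature library (adjusted p up to 0.209). Levels per kilobase of the longest annotated protein-coding transcript differed between subunits of the same ring. Which transcript the cells express was not examined. In IL-3 immature cells Mcm3 was at 78.5 CPM per kb, while Mcm2, Mcm4, Mcm5, Mcm6 and Mcm7 were at 14.9 to 28. Mcm10, which joins the helicase at firing, was at 3.89. Of the 50-base stretches of Mcm7, 26% are shared with another annotated transcript, and its reads may be split or counted more than once.

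Within ORC, calls differed from subunit to subunit. Orc1 and Orc6 were higher in immature cells of both cultures, whereas Orc4 was called in neither. Orc1 (chromosome 4, 108575705 to 108616030, plus strand), the ATPase subunit that is degraded and remade each cycle in mammals, stood at 3.38, 3.7 and 2.97 CPM in the immature and 0 in each of the mature libraries with IL-3, and at 3.89, 3.11 and 4.75 (immature) and 0.537, 0 and 0 (mature) with TSLP. Against the floor of 3 counts over the IL-3 mature group it was at least 8.75-fold higher in IL-3 immature cells (29 counts against 0), and in TSLP cultures the ratio was 20.8 (5.34 to 178, 35 counts against 2). The TSLP value rests on TSLP mature 1, which held both counts, and the log2 value of the fit, 4.11 ± 0.72, became 6.55 without it. With 0 counts left in the TSLP mature group, 6.55 does not measure the size of change. Orc2 (chromosome 1, 58462771 to 58505113, minus strand), a core subunit, stood at 46.9, 42.4 and 32 CPM in the immature and 29.1, 26.8 and 26 in the mature libraries with IL-3, and at 22.2, 27.2 and 19.3 (immature) and 15.6, 16.7 and 18.1 (mature) with TSLP. It was lower with TSLP at both stages, with a ratio of 1.75 (1.47 to 2.1) in immature and 1.64 (1.34 to 2.01) in mature cells. Adjusted p values by edgeR were 0.0127 and 0.0195. The call in immature cells was lost without IL-3 immature 1 (0.0585) or TSLP immature 3 (0.0683), and that in mature cells without IL-3 mature 1 (0.0638). The IL-3 stage call of Orc2 (log2 fold change 0.56 ± 0.19, adjusted p = 0.0275 by edgeR) was kept in 17 of 22 settings and lost without IL-3 immature 1 or 2 or IL-3 mature 2 or 3 (adjusted p up to 0.0865).

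Orc4 (chromosome 2, 48902824 to 48952902, minus strand), another ATPase subunit, stood at 10.6, 17.1 and 16.8 CPM in the immature and 22.7, 19.9 and 22 in the mature libraries with IL-3, and at 23.4, 16.7 and 23.4 (immature) and 14.8, 31.6 and 27.3 (mature) with TSLP. IL-3 mature libraries were all above IL-3 immature ones, but the log2 fold change of -0.51 ± 0.28 was not called (adjusted p = 0.145 by edgeR). Orc3 and Orc5 were called between the IL-3 stages (log2 fold changes 0.82 and 1.53) and not between the TSLP stages (0.26 and -0.11). Orc5 was also called higher in TSLP than in IL-3 mature cells (2.67-fold, 1.74 to 4.22), a call lost without IL-3 mature 2 (adjusted p = 0.0604 by edgeR). The loading factors were also called between the IL-3 stages. Cdc6, which loads MCM with ORC, was 18.7-fold higher in IL-3 immature cells (9.65 to 41.6), Cdt1, its partner in loading, 18.3-fold (7.59 to 57.6) and Gmnn, the geminin that inhibits CDT1, 8.4-fold (6.12 to 11.8). Without IL-3 mature 2 the log2 fold change of Cdc6 between the IL-3 stages went from 4.19 to 5.68, and without IL-3 mature 1 that of Cdt1 from 4.08 to 4.70. In mature cells Cdt1 was 8.45-fold higher with TSLP than with IL-3 (3.42 to 27, 57 counts against 5), whereas Cdc6 and Gmnn were not called (log2 fold changes 0.48 ± 0.61 and 0.24 ± 0.34). The value of Cdc6 rests on IL-3 mature 2 and was 1.86 without it (adjusted p = 0.119 by edgeR), and that of Cdt1 went from 3.01 to 3.63 without IL-3 mature 1. In immature cells Cdc6 and Gmnn were called lower with TSLP (2.52-fold and 1.93-fold). The call of Cdc6 was lost without IL-3 immature 2 (adjusted p = 0.0506 by edgeR) or TSLP immature 3 (0.0729), and that of Gmnn without IL-3 immature 1 (0.068) or 2 (0.0551) or TSLP immature 2 (0.0592) or 3 (0.0531).

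The GINS subunits, which have equal numbers in the complex, had unequal RNA. Gins4 (chromosome 8, 23226610 to 23237668, minus strand) stood at 100.5, 58.9 and 49.5 CPM in the immature and 46.4, 56.6 and 41.3 in the mature libraries with IL-3, and at 47, 54.5 and 49.8 (immature) and 51.3, 29.9 and 42.6 (mature) with TSLP. All 4 groups overlapped in pairs, and no comparison was called, with log2 fold changes of 0.52 ± 0.25 between the IL-3 stages (adjusted p = 0.105 by edgeR) and 0.29 ± 0.25 between the TSLP stages. The former was called in 4 of 22 other settings, among them without IL-3 immature 3 (adjusted p = 0.0338). Gins2 (chromosome 8, 120581266 to 120589075, minus strand) stood at 11.1, 10.2 and 10.6 CPM in the immature and 1.06, 0.363 and 0.449 in the mature libraries with IL-3, and at 6.29, 6.61 and 5.76 (immature) and 2.96, 1.41 and 0 (mature) with TSLP. It was higher in immature cells, 16.5-fold with IL-3 (6.81 to 52) and 4.08-fold with TSLP (2.31 to 7.64). Its log2 value in the fit went from 2.02 to 3.10 without TSLP mature 1 and, between the IL-3 stages, from 3.97 to 4.58 without IL-3 mature 1. Per kilobase of the longest annotated transcript, Gins4 stood at 35.7 CPM per kb in IL-3 mature cells, while Gins1, Gins2 and Gins3 were at 0.16 to 0.442. Gins1 and Cdc45 were called higher in immature cells of both cultures, and Gins3 in IL-3 cultures (7.81-fold) and not in TSLP cultures (log2 fold change 0.91 ± 0.44). Gins3 was also called lower in TSLP than in IL-3 immature cells (log2 fold change -1.39 ± 0.37, adjusted p = 0.0216 by edgeR). That call was kept in 17 of 21 settings and lost without IL-3 immature 1 or 2 or TSLP immature 1 or 3. Without IL-3 mature 2 the log2 fold change of Gins1 between the IL-3 stages went from 3.97 to 5.22, and without TSLP mature 1 that between the TSLP stages from 1.63 to 2.42. Its TSLP call was lost without TSLP immature 2 or TSLP mature 2 or 3. Between the mature groups 0 of these 5 genes were called by edgeR (0 at an unadjusted p below 0.05).

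All 4 genes of origin firing were called higher in immature cells of both cultures. Dbf4 (chromosome 5, 8396969 to 8422725, minus strand), the regulatory subunit of CDC7, stood at 30.9, 36.1 and 39.9 CPM in the immature and 9.93, 5.44 and 4.49 in the mature libraries with IL-3, and at 23.1, 24.5 and 26.1 (immature) and 4.84, 3.67 and 7.35 (mature) with TSLP. It was higher in immature cells, 5.33-fold with IL-3 (3.97 to 7.27) and 4.69-fold with TSLP (3.47 to 6.42). Ccne1 (chromosome 7, 38097984 to 38107490, minus strand), a cyclin E that drives entry into S phase, stood at 13, 9.96 and 17.1 CPM in the immature and 0, 0.363 and 0 in the mature libraries with IL-3, and at 6.59, 8.17 and 5.76 (immature) and 0.537, 1.13 and 0.613 (mature) with TSLP. With 114 counts against 1, its ratio between IL-3 stages was 103 (18.2 to 4110). Its log2 value in the fit went from 6.30 to 8.38 without IL-3 mature 2. The IL-3 mature group then held 0 counts, so that 8.38 does not measure the size of change. With TSLP the ratio was 8.91 (4.24 to 21.6). The catalytic kinase Cdc7 was 70.2-fold higher in IL-3 immature cells (19.1 to 585, 155 counts against 2) and 8.84-fold with TSLP. Its log2 fold change went from 5.93 to 8.76 without IL-3 mature 1, where 0 counts were left and 8.76 does not measure the size. With TSLP the log2 fold change of Cdc7 went from 3.11 to 3.76 without TSLP mature 2.

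All 9 genes of the polymerases and primase were called between the IL-3 stages and 7 between the TSLP stages, the other two being Pola2 and Pold3. Of the 7 TSLP calls, that of Pold1 was kept in 17 of 22 settings and that of Pole2 in 19 of 21. Prim1 (chromosome 10, 128015215 to 128030030, plus strand), the catalytic primase subunit, stood at 20.8, 21.1 and 15.2 CPM in the immature and 0.355, 0 and 0 in the mature libraries with IL-3, and at 19.5, 12.4 and 12.5 (immature) and 1.34, 0.282 and 0.613 (mature) with TSLP. With 163 counts against 1 the IL-3 ratio was 148 (26.1 to 5870), and the TSLP ratio was 19.9 (9.81 to 47). Its fitted values on the log2 scale went from 6.81 to 8.83 without IL-3 mature 1 and from 4.22 to 5.04 without TSLP mature 1. Without IL-3 mature 1 the IL-3 mature group held 0 counts, so that 8.83 does not measure the size of change. Pold2 (chromosome 11, 5872180 to 5878256, minus strand), an accessory subunit of polymerase δ, stood at 32.4, 42.1 and 47.1 CPM in the immature and 2.48, 1.09 and 2.69 in the mature libraries with IL-3, and at 29, 39.3 and 41 (immature) and 15, 8.19 and 9.5 (mature) with TSLP. The immature groups overlapped, whereas Pold2 was 5.38-fold higher in TSLP than in IL-3 mature cells (3.17 to 9.72), with a log2 fold change of 2.39 ± 0.38 and an adjusted p of 0.000709 by edgeR.

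The smallest IL-3 change among the polymerase genes was that of Pold3. Pold3 (chromosome 7, 100082110 to 100121502, minus strand), which also works in repair synthesis, stood at 29, 30.2 and 27.4 CPM in the immature and 13.1, 13.8 and 18 in the mature libraries with IL-3, and at 18.6, 22.2 and 19.7 (immature) and 15.9, 11.6 and 13.8 (mature) with TSLP. It was 1.96-fold higher in IL-3 immature cells (1.57 to 2.47), and the stages did not overlap in TSLP cultures either, where the log2 fold change of 0.55 ± 0.20 was not called (adjusted p = 0.0579 by edgeR). It was called in 10 of 22 other settings, among them without TSLP mature 1 (adjusted p = 0.0134). Between the mature groups Pola1, Pola2, Prim2, Pold1 and Pold2 were higher with TSLP. The call of Prim2 was lost without IL-3 mature 1 or TSLP mature 3 (adjusted p up to 0.1). Pola2 ranged from 10.7 to 11.6 CPM in TSLP mature and from 4.35 to 6.03 in IL-3 mature libraries. Pole, the catalytic subunit of polymerase ε, had 1.32 ± 1.98 CPM in IL-3 mature and 1.31 ± 0.505 in TSLP mature cells (SD, n = 3), and was 16.5-fold and 12.4-fold higher in the immature cells of the same cultures. The IL-3 mature libraries of Pole were at 0, 0.363 and 3.59 CPM, and without the third its log2 fold change went from 3.95 to 6.46 between the IL-3 stages and from 0.17 to 2.58 between the mature groups (adjusted p = 0.0651 by edgeR). Without IL-3 mature 1 these were 3.32 and -0.46.

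PCNA and RFC held the most abundant gene and the only gene of the 50 called lower in immature cells of either culture. Pcna (chromosome 2, 132249286 to 132253180, minus strand), the sliding clamp, stood at 200.5, 223 and 221 CPM in the immature and 51, 53 and 40.4 in the mature libraries with IL-3, and at 208, 220.2 and 236 (immature) and 143, 96.9 and 138 (mature) with TSLP. The immature groups overlapped, and the mature groups were apart. Pcna was 4.45-fold higher in immature cells with IL-3 (3.98 to 4.98) but 1.75-fold with TSLP (1.64 to 1.88), and it was 2.59-fold higher in TSLP than in IL-3 mature cells (2.31 to 2.91). With IL-3 the log2 fold change was 2.15 ± 0.19, with TSLP 0.81 ± 0.18. Of its 50-base stretches, 31.8% are shared with the pseudogene Pcna-ps2.

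Rfc3 (chromosome 5, 151642817 to 151651208, minus strand), a small subunit of the clamp loader, stood at 70, 44.9 and 32 CPM in the immature and 2.48, 2.9 and 2.69 in the mature libraries with IL-3, and at 24.3, 23 and 34.2 (immature) and 9.13, 4.52 and 6.74 (mature) with TSLP. It was 17.2-fold higher in immature cells with IL-3 (11.1 to 28.2) and 3.98-fold with TSLP (3.04 to 5.25). Its call between the mature groups (adjusted p = 0.0351 by edgeR) was lost without TSLP mature 1 (0.154) or 3, without any 1 of the 3 IL-3 mature libraries, and without IL-3 immature 2 or TSLP immature 1 or 2. Rfc2 (chromosome 5, 134582690 to 134598328, plus strand), another small subunit, stood at 130.4, 115 and 131 CPM in the immature and 182, 167 and 150 in the mature libraries with IL-3, and at 118, 100.8 and 139 (immature) and 192, 135 and 191 (mature) with TSLP. The mature over immature ratio was 1.35 with IL-3 (1.24 to 1.46), with an adjusted p of 0.0826, and 1.43 with TSLP (1.33 to 1.55), with an adjusted p of 0.0451, both by edgeR. The TSLP call was kept in 3 of 22 other settings and was lost without any single library except TSLP mature 2 (adjusted p up to 0.265). An exon of Rfc2 overlaps on the opposite strand an exon of Lat2, an adaptor of IgE receptor signalling, which had mean levels of 528 and 1510 CPM in immature and mature cells with IL-3, and of 621 and 1040 CPM with TSLP. Lat2 was thus also higher in mature cells, and its part in the Rfc2 counts was not tested. Rfc4 and Rfc5 were higher in immature cells of both cultures, 13.1-fold and 9.86-fold with IL-3. Without IL-3 mature 2 the log2 fold change of Rfc4 between the IL-3 stages went from 3.72 to 4.34, and without TSLP mature 1 that between the TSLP stages from 1.96 to 3.03. The large subunit Rfc1 was 2.69-fold higher with IL-3 and 2.1-fold with TSLP. Between the immature groups Rfc1 was called lower with TSLP (log2 fold change -0.86 ± 0.21, adjusted p = 0.014 by edgeR). This call was kept in 20 of 22 settings and lost without IL-3 immature 1 or TSLP immature 3.

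**Figure D3:**
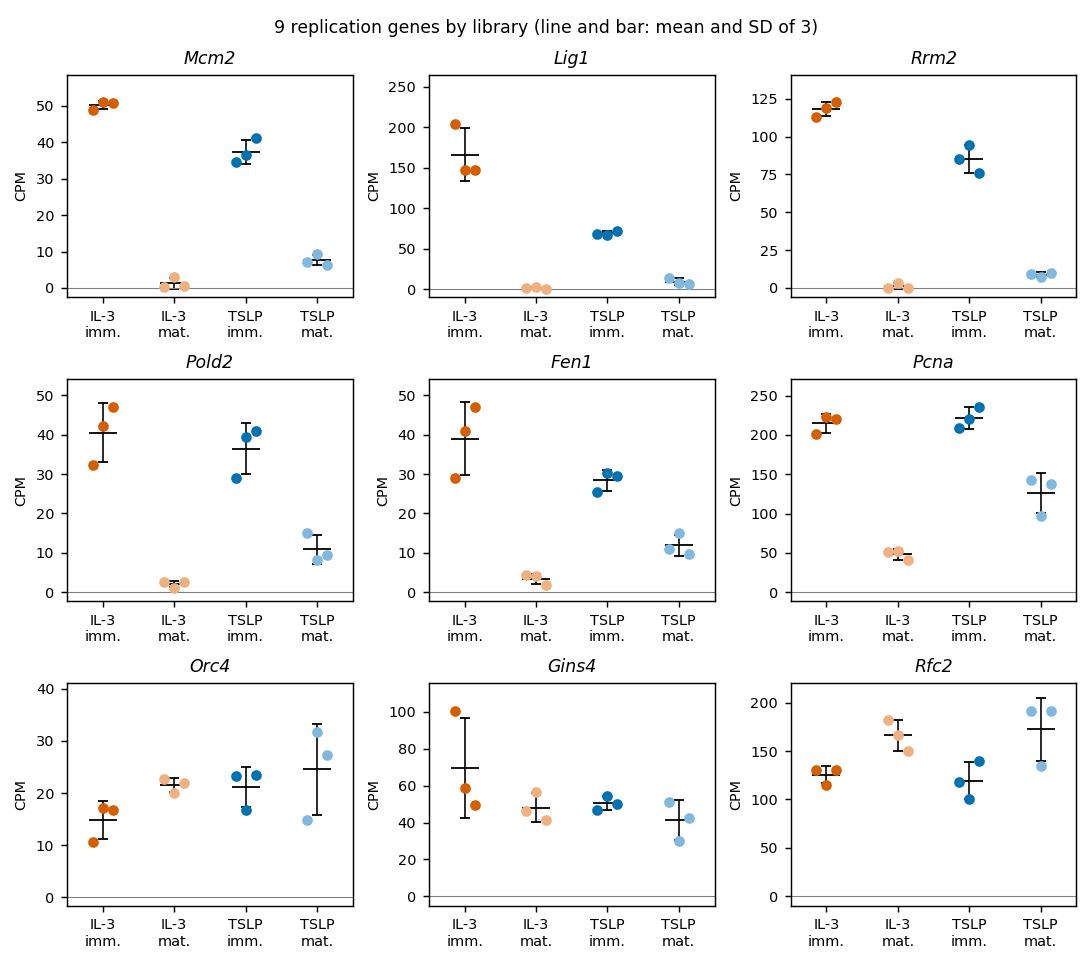
CPM of 9 replication genes in each of the 12 libraries (points), with the mean and SD of 3 libraries (line and bar), by group, where imm. and mat. stand for immature and mature. Mcm2, Lig1, Rrm2, Pold2, Fen1 and Pcna are lowest in the IL-3 mature libraries and intermediate in the TSLP mature ones, while Orc4, Gins4 and Rfc2 show no such order.

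All 5 genes of RPA and Okazaki fragment processing were called higher in immature cells of both cultures. For Rpa3 the TSLP call was kept in 19 of 22 settings and lost without TSLP immature 1 or TSLP mature 2. Rpa3 stood at 18.5, 7.63 and 3.68 CPM in the TSLP mature libraries. Lig1 (chromosome 7, 13277175 to 13311426, plus strand), the ligase that seals nicks between Okazaki fragments, stood at 204, 147 and 147 CPM in the immature and 0.709, 2.54 and 0.449 in the mature libraries with IL-3, and at 68.6, 67.3 and 71.9 (immature) and 14.2, 7.63 and 5.82 (mature) with TSLP. None of the 4 groups overlapped. Lig1 was 125-fold higher in immature cells with IL-3 (68 to 262, 1385 counts against 10) and 7.37-fold with TSLP (5.95 to 9.21). It was lower with TSLP in immature cells (2.32-fold, 2.11 to 2.55) and higher with TSLP in mature cells (7.34-fold, 3.83 to 15.8), and besides it, only Pola1 of the 50 was called lower in immature and higher in mature cells with TSLP. For Pola1 the mature call was kept in 13 of 22 settings and lost without any IL-3 mature library or without TSLP mature 1 or 2 (adjusted p up to 0.104 by edgeR). Its immature call was lost without IL-3 immature 2 (0.0603) or TSLP immature 3 (0.0547). Without IL-3 mature 2 the log2 fold change of Lig1 between the IL-3 stages moved from 6.97 to 8.07 and that between the mature groups from 2.83 to 3.83.

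Fen1 (chromosome 19, 10199132 to 10204393, minus strand), the flap nuclease that acts before LIG1, stood at 29, 41 and 47.1 CPM in the immature and 4.25, 3.99 and 1.8 in the mature libraries with IL-3, and at 25.4, 30.3 and 29.5 (immature) and 11, 15 and 9.8 (mature) with TSLP. It was 11.6-fold higher in immature cells with IL-3 (7.86 to 17.9), 2.36-fold with TSLP (1.9 to 2.94) and 3.46-fold higher in TSLP than in IL-3 mature cells (2.27 to 5.46). Rpa1 (chromosome 11, 75300259 to 75348454, minus strand), the large subunit of RPA, stood at 197, 177 and 145 CPM in the immature and 35.5, 41 and 31 in the mature libraries with IL-3, and at 117, 126 and 111 (immature) and 48.4, 46.3 and 39.5 (mature) with TSLP. It was 4.72-fold higher in immature cells with IL-3 and 2.61-fold with TSLP. The mature groups overlapped (log2 fold change 0.32 ± 0.18), and the call between the immature groups (-0.55 ± 0.17, adjusted p = 0.0412 by edgeR) was kept in 15 of 22 settings. It was lost without IL-3 immature 1 or 2, without IL-3 mature 1, or without any TSLP immature library (adjusted p up to 0.15).

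All 5 genes of nucleotide supply were called higher in immature cells of both cultures. Rrm2 (chromosome 12, 24708254 to 24714146, plus strand), the small and S phase-limited subunit of ribonucleotide reductase, stood at 113, 119 and 123 CPM in the immature and 0, 3.63 and 0 in the mature libraries with IL-3, and at 85, 94.5 and 75.9 (immature) and 9.13, 7.06 and 10.1 (mature) with TSLP. All 10 of its counts in IL-3 mature cells came from library 2. The ratio between the IL-3 stages was 92.8 (50.3 to 194), that between the TSLP stages 9.7 (7.8 to 12.2) and that between the mature groups 6.82 (3.55 to 14.7). Its fitted values depended on IL-3 mature libraries. The log2 fold change between the IL-3 stages was 6.49, and that between the mature groups 2.74. Leaving out IL-3 mature 2 left 0 counts in that group, so the fitted 11.52 and 7.67 do not measure the size of change. Leaving out IL-3 mature 1 gave 5.87 and 2.13.

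Rrm1 (chromosome 7, 102441695 to 102469771, plus strand), the large subunit of the same enzyme, stood at 112, 112 and 133 CPM in the immature and 3.19, 3.99 and 6.74 in the mature libraries with IL-3, and at 87.4, 102 and 75.9 (immature) and 16.1, 15.3 and 9.19 (mature) with TSLP. The mature groups did not overlap, and Rrm1 was 3.05-fold higher with TSLP (2.1 to 4.55). Tyms (chromosome 5, 30038546 to 30073645, minus strand), the thymidylate synthase and the gene with the smallest IL-3 change of this role, stood at 107, 81.1 and 119 CPM in the immature and 27.7, 29.4 and 50.3 in the mature libraries with IL-3, and at 125, 124 and 109 (immature) and 41.4, 72.9 and 63.7 (mature) with TSLP. It was 2.9-fold higher in immature cells with IL-3 (2.52 to 3.33) and 2.03-fold with TSLP (1.84 to 2.24). The mature groups overlapped, and the call between them (0.74 ± 0.25, adjusted p = 0.0443 by edgeR) was kept in 7 of 22 settings. It was lost without any single immature library, without IL-3 mature 1 or 2, or without TSLP mature 2 or 3 (adjusted p up to 0.219). Of its 50-base stretches, 10.1% are shared with other annotated transcripts, among them Tyms-ps and the basophil gene Cd200r3. Dut, which keeps dUTP low, was 27.7-fold higher in IL-3 immature cells and 4.75-fold higher in TSLP than in IL-3 mature cells. Without IL-3 mature 1 its log2 fold changes went from 4.80 to 5.95 and from 2.23 to 3.38. Tk1, the S phase thymidine kinase, was 30.3-fold higher in IL-3 immature cells and not called between the mature groups (0.90 ± 0.55, and 0.11 without TSLP mature 1).

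**Figure D4:**
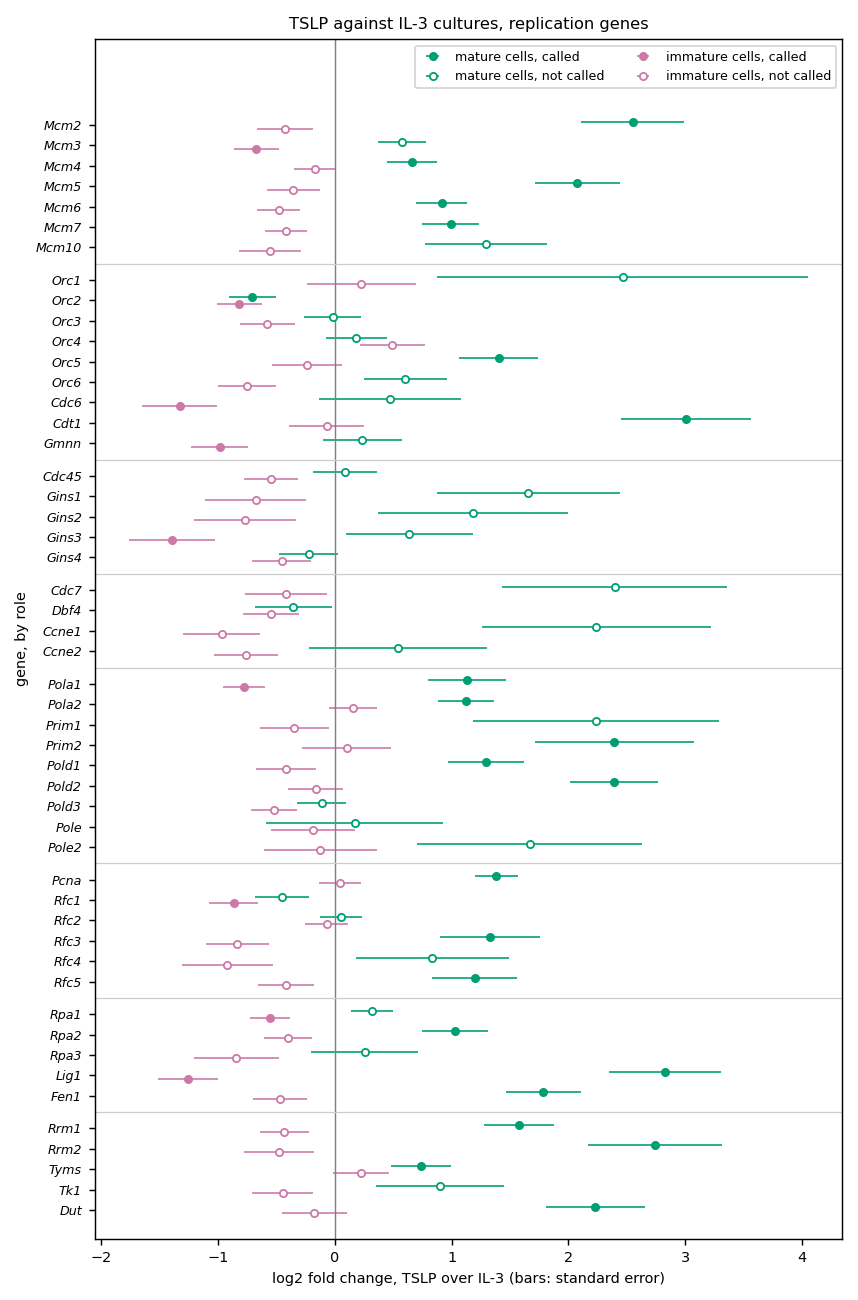
log2 fold change of TSLP over IL-3 cells with its standard error (horizontal axis) for each of the 50 genes (vertical axis, grouped by role), in mature (green) and immature (pink) cells. Filled points were called: 23 in mature cells, of which 22 lie to the right of 0, and 9 in immature cells, all to the left of 0.

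Whether the stage effect itself depended on the cytokine was tested by the interaction, the immature minus mature difference in TSLP less that in IL-3 cultures. It was called for 18 of 50 genes by edgeR and 20 by DESeq2, all negative, where 2.04% of all genes were called negative and 2.14% positive. A negative value means a smaller stage difference with TSLP for these genes. The median over the 50 was -1.63, against 0.02 for all genes, and -1.21 without TSLP mature 1, when 15 were called. Without IL-3 mature 3, 11 were called. Over all genes, 222 were negative with every library, 246 without TSLP mature 1 and 110 without IL-3 mature 3. By role, the 18 were 5 of 7 MCM genes, 1 of 9 licensing genes (Cdt1) and 3 of 9 polymerase genes. They also held 3 each of PCNA and RFC, of RPA and Okazaki enzymes, and of nucleotide supply. In CDC45 and GINS 0 of 5 were called and in origin firing 0 of 4 (2 in each at an unadjusted p below 0.05 by edgeR). The smallest adjusted p belonged to Lig1 (-4.08 ± 0.54, adjusted p = 0.00042 by edgeR), followed by Mcm2 (-2.98 ± 0.51), Fen1 (-2.26 ± 0.40), Mcm5 (-2.43 ± 0.43), Pold2 (-2.56 ± 0.45) and Rrm1 (-2.01 ± 0.37). Leaving out IL-3 mature 2 moved Lig1 to -5.12 and Mcm2 to -4.55, and Mcm5 was at -3.08 when IL-3 mature 3 was left out. The call of Dut was lost without IL-3 mature 2 (adjusted p = 0.0695) or 3 (0.0569), and that of Cdt1 likewise (0.0653 and 0.0513). Without IL-3 mature 1 their values went from -2.41 to -3.56 and from -3.08 to -3.69. Cdc6 was not called (-1.81, adjusted p = 0.161) but was without IL-3 mature 2 (-3.22, adjusted p = 0.0388). Of the 18, 17 were also called higher in TSLP than in IL-3 mature cells, the exception being Mcm3 (adjusted p = 0.0524 by edgeR), a comparison with which the interaction shares its 6 mature libraries. The values nearest 0 were those of Orc2 (-0.11 ± 0.28), Rfc2 (-0.12 ± 0.26), Dbf4 (-0.19 ± 0.41) and Gins4 (-0.23 ± 0.36), and Orc4 (0.31 ± 0.38) was the only positive one.

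Low counts bound these contrasts. In IL-3 mature cells 17 of the 50 genes had 10 or fewer counts over the 3 libraries, against 4 in TSLP mature cells. The floor of 3 counts over a group was 0.384 CPM in IL-3 mature and 0.285 CPM in TSLP mature cells. Counting error alone enters these intervals and floors. For 15 of the 50 genes, among them Orc1, Orc2, Orc4, Gins2, Rfc2, Lig1 and Fen1, an exon overlaps an exon of a gene on the opposite strand, and whether counting used the strand is not given in the sources used here.

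Further genes of the pathway were taken from a list of 52, of which 48 were tested. Of these, 36 were higher and 4 lower in IL-3 immature than in IL-3 mature cells, 33 and 2 in the TSLP stages, 18 and 2 in TSLP against IL-3 mature cells, and 2 and 6 in TSLP against IL-3 immature cells. In the same order, the shares of all genes called higher and lower were 22.1% and 24.1%, 12.2% and 12.9%, 12.4% and 11.9%, and 7.38% and 5.90%. The median log2 fold changes of the 48 were 2.25, 1.07, 0.71 and -0.40, against -0.06, -0.03, 0.09 and 0.04 for all genes. The interaction was called for 11, of which 10 were negative (2.04% of all genes were) and 1 positive (2.14%). All 7 factors of replication-coupled chromatin were higher in the immature cells of both cultures. Among them were Chaf1a, a subunit of the histone chaperone CAF-1 (log2 fold changes 4.67 with IL-3 and 2.17 with TSLP), and Uhrf1, which directs DNMT1 to newly copied DNA (6.15 and 2.84). Of 17 further replisome and origin factors tested, 12 were higher and 1 lower in IL-3 immature cells, and Clspn, the checkpoint mediator claspin, had log2 fold changes of 5.32 and 3.42.

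Of the 24 other nucleotide enzymes tested, 17 were higher and 3 lower in IL-3 immature cells, against 22.1% and 24.1% of all genes. Among those higher was Ctps, the CTP synthase, with log2 fold changes of 5.68 with IL-3 and 2.82 with TSLP. The 3 that were lower were Samhd1, a dNTP hydrolase (-2.56 with IL-3 and -1.25 with TSLP), Tk2, the mitochondrial thymidine kinase (-1.49 and -1.01), and Rrm2b, the ribonucleotide reductase subunit used outside S phase (-0.94, and -0.43 with TSLP, which was not called). Samhd1 was also lower in TSLP than in IL-3 mature cells (-0.88).

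A list of 32 mitotic genes gave the scale for the stage difference. All 32 were higher in immature cells of both cultures, with a median log2 fold change of 5.74 with IL-3 and 3.82 with TSLP, against 3.54 and 1.77 for the replication genes and -0.06 and -0.03 for all genes, of which 22.1% and 12.2% were called higher. Between the mature groups 17 mitotic genes were higher and 2 lower with TSLP (median 1.41), between the immature groups 12 were lower (median -0.47), and the interaction was called for 14, all negative (median -1.99). For all genes the calls between the mature groups were 12.4% higher and 11.9% lower, between the immature groups 5.90% lower, and in the interaction 2.04% negative. The difference between the replication and mitotic lists was not tested.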

How the data were processed

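Polyadenylated RNA of 12 libraries was sequenced on an Ion Proton instrument after oligo(dT) capture and whole-transcriptome amplification. The authors deposited raw counts per gene symbol. By the study's description, Cutadapt removed adapters, Bowtie2 aligned the reads to GRCm38 reference RNA, and aligned reads were summed per gene. The labels also list GRCm39 and mm10. Use of strand, of molecular identifiers and of reads with several matches is not stated there. Counts of Rn45s were 1.001 to 1.018 times those of Rn18s and Rn28s1 together, so the same ribosomal reads stand in more than 1 row. The table's 1 unnamed row equalled the sum of the others and was left out. All 12 columns were mapped to a sample.

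R 4.3.3 with edgeR 4.0.16 was used for quasi-likelihood F tests of the counts, after filterByExpr (minimum count 10, minimum total 15, which left 10861 genes with 99.5 to 99.7% of the counts) and TMM scaling, in 1 fit of the 4 groups without a block. The common biological coefficient of variation was 20.4%. Benjamini-Hochberg adjustment ran over all genes tested, and genes with an adjusted p under 0.05 are named as called. CPM are counts per 1000000 of the TMM-scaled library size. Folds are ratios of summed counts over scaled library sizes, with 95% exact binomial intervals, or against a floor of 3 counts. Errors of log2 fold changes are standard errors. The code was tested on simulated counts. According to the study, the 3 libraries of a group came from separate cultures, and p-values measure only the spread between them.

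The genes, roles and lists were chosen with earlier results of these data known. Values per library are printed for the gene with the highest mean CPM, the largest and the smallest absolute log2 fold change between the IL-3 stages in each role, for the 6 smallest adjusted p of the interaction, and for genes called against the direction of the others. Lat2 and the members named with a single statistic were chosen after their values were seen. Marker lists of eosinophils (8.95 to 53.5 CPM summed), erythroid cells (0 to 6.54), mast cells (654 to 3220, mostly Cpa3) and T and NK cells (1.84 to 49.5) were also summed. Shared stretches were counted over 50 bases in GENCODE M21 transcripts, and positions and promoters are from RefSeq, GRCm38.p6. Alternatives were DESeq2 1.42.0, other scalings and filters, fits of the compared groups alone, thinning to the smallest library, a replicate block and leaving out each library.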

Additional observations from a re-analysis of the deposited data

Results flagged for a closer look

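The stage effect differed between the cultures, by the interaction test of edgeR (adjusted over all genes tested), for 18 of the 50 replication genes. In each, the immature minus mature difference on the log2 scale was smaller with TSLP than with IL-3. The difference was -4.08 for Lig1, -2.98 for Mcm2, -2.26 for Fen1, -2.43 for Mcm5, -2.56 for Pold2 and -2.01 for Rrm1. It was -1.34 for Pcna, -1.91 for Pola1, -3.22 for Rrm2, -1.40 for Mcm6, -2.41 for Dut and -3.08 for Cdt1. For the rest it was -1.41 for Mcm7, -1.25 for Mcm3, -2.16 for Rfc3, -1.72 for Pold1, -1.43 for Rpa2 and -1.61 for Rfc5. Their adjusted p values ran from 0.00042 (Lig1) to 0.0475 (Rfc5). Calls of 10 of these genes, namely Lig1, Mcm2, Fen1, Mcm5, Pold2, Rrm1, Pcna, Pola1, Rrm2 and Mcm6, were kept in every setting tried. Without IL-3 mature 2, the value of Rrm2 was -8.18. The IL-3 mature group then held 0 counts of Rrm2, so that -8.18 does not measure the size. Without IL-3 mature 1 the value of Rrm2 was -2.60. The value of Dut was -3.56 without IL-3 mature 1. The causes of these differences were not tested.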

How the results depend on the processing

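Every median kept its sign in every setting, and no call of a named gene turned its direction. Of the calls, 46 of 47 between the IL-3 stages, 35 of 42 between the TSLP stages, 11 of 23 between the mature groups, 1 of 9 between the immature groups (Lig1) and 10 of 18 in the interaction were kept in every setting that tested the gene. Fitting only the groups compared gave 22 calls between the immature and 14 between the mature groups, and thinning to the smallest library gave 14 between the mature groups and a median of 3.24 between the IL-3 stages. DESeq2 called 47, 42, 21 and 11 genes in the 4 pairwise comparisons and 20 in the interaction. Leaving out 1 library gave 46 to 48 calls between the IL-3 stages (medians 3.33 to 3.62), 37 to 42 between the TSLP stages (1.71 to 2.21), 15 to 21 between the mature groups (0.762 to 1.20), 1 to 19 between the immature groups (-0.554 to -0.457) and 11 to 18 in the interaction (-1.71 to -1.21). Over all genes, calls between the immature groups ran from 588 to 2243 in these fits. A group left with 2 libraries borrows the spread of the others. Library sizes without the 3 ribosomal RNA rows were added after seeing the data. They gave 47, 42, 21, 10 and 17 calls, and turned the split of all called genes between the mature groups from 1345 higher and 1289 lower to 1035 and 1504. The cause of these shifts was not tested.

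Same-numbered libraries of different groups correlated at -0.082 to 0.403 in their deviations from the group means (median 0.0788, 18 pairs), and those with different numbers at -0.321 to 0.283 (median -0.0498, 36 pairs). Since not every same-numbered pair was above 0.1, the numbers were not taken as pairs, although 7 of 12 libraries were closest to one of their own number. That rule cannot tell whether the 2 stages of a culture were paired, because it also held pairs across cytokines, which share no culture. Between the stages, same-numbered pairs were at 0.0844, -0.082 and 0.0733 with IL-3 and at 0.161, 0.0696 and 0.382 with TSLP. With a replicate block, 47, 42, 24, 12 and 18 genes were called, with medians of 3.53, 1.77, 1.07, -0.459 and -1.64. It added Mcm3 between the mature groups and Orc6, Rfc3 and Rpa3 between the immature groups, and in the interaction it added Rpa1 and lost Rfc5. Low counts limit the IL-3 mature group, where 17 of the 50 genes had 10 or fewer counts, against 4 in the TSLP mature group.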
